A study of Mus musculus with 10 samples.

Results

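The genes described here write, remove or read methyl groups on DNA: the DNA methyltransferases Dnmt1 and Dnmt3a, the dioxygenases Tet1, Tet2 and Tet3, and the methyl-CpG-binding domain genes Mbd1, Mbd2 and Mbd5. They were taken from the deposited gene list by symbol, and all 8 were found, each in 1 of 24837 genes. The 10 samples form 1 group: hippocampus from unstimulated C57B/6J mice, genotype wild type, at an age of 4 to 7 months. Frozen tissue was used, the nuclei were stained with the DNA dye 7AAD and sorted, and about 5000 per sample were loaded for droplet sequencing of transcript 3′ ends. Barcodes carry a suffix from 1 to 7, which cannot be matched to the samples or to animals from the labels. All nuclei were therefore treated as 1 sample, with no test, and the nuclei sharing a suffix are called a barcode set, which shows spread only.

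Cytosine methylation in mammals sits mostly on CpG dinucleotides. DNMT1 copies the pattern onto the new strand after replication, and DNMT3A places methyl groups on DNA that carries none, including the non-CpG methylation that accumulates in mature neurons. The TET enzymes oxidise 5-methylcytosine to 5-hydroxymethylcytosine, which is abundant in brain, and so open a route to its removal. MBD1 and MBD2 bind methylated CpG, MBD2 as part of a NuRD nucleosome-remodelling complex, whereas MBD5 carries an MBD-like domain, does not bind methylated DNA, and associates with the histone H2A deubiquitinase complex PR-DUB.

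The 3 TET genes differ in CpG content just before the starts that RefSeq lists, and their balance between nucleus classes is the pattern described most fully here. The 250 bases before the RefSeq start of each are printed 5′ to 3′ on the gene's own strand (RefSeq, GRCm38.p6), with every CpG, the dinucleotide that these enzymes act on, in capitals. The Tet1 window is chr10:62887325-62887574, the Tet2 window chr3:133544391-133544640 and the Tet3 window chr6:83441679-83441928, all on the minus strand. All 3 windows lie inside the gene spans of GENCODE M21, whose outermost starts are farther upstream.
Tet1: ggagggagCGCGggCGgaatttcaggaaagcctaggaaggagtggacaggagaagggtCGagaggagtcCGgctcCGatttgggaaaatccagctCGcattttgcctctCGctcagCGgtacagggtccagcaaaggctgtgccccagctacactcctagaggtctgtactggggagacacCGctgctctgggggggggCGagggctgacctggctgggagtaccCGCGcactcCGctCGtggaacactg
Tet2: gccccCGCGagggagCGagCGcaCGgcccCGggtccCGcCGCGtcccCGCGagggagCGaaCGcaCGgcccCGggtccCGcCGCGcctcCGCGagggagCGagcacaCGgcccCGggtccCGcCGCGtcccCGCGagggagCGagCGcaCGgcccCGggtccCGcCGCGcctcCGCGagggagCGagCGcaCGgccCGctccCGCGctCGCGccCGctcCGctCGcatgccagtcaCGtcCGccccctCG
Tet3: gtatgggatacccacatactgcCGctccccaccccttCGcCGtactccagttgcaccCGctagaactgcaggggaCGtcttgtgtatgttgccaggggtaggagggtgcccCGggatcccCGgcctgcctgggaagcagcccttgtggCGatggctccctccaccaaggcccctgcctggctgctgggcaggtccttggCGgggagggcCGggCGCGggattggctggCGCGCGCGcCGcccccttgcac
The motif searched was CG, which reads the same on both strands and cannot overlap itself. The Tet2 window held 51 CpG, many of them in a repeated GC-rich unit, the Tet3 window 17 and the Tet1 window 15. Of 32851 mouse promoter windows of this length, 92.1% held at least 1 CpG, the median was 6, and 0.067% held as many as the Tet2 window or more. The same share was 23.5% for Tet3 and 27.3% for Tet1. For Dnmt3a, 3 starts were listed, and their windows held 38, 40 and 15 CpG. Dnmt1 had windows with 2, 7 and 26, and Mbd5 windows with 16 and 4. These counts describe the reference sequence, and no methylation was measured.

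Of 15661 barcodes, 15560 had at least 500 UMIs (unique molecular identifiers, each counted as 1 transcript molecule), and 15257 were used after removal of 303 called doublets. They fell into 35 clusters, of which 29 were named from cell type markers, and 1457 nuclei in 6 clusters stayed unnamed. None of the 8 genes took part in the clustering. The microglial cluster had 7 of 7 listed markers high, the oligodendrocyte precursor cluster 6 of 6, the oligodendrocyte clusters 6 or 7 of 7 and the Cajal-Retzius cluster 8 of 8. Subicular or cortical clusters had 4 of 9 high and inhibitory clusters 5 to 7 of 10. Granule clusters had 4 to 6 of 6 high, CA2/CA3 clusters 7 of 9 and CA1 clusters 3 to 6 of 7. The CA1 cluster with 3 of 7, of 503 nuclei, was led by Fras1 and Dcn. Set 1 formed clusters largely of its own, set 6 was 99.8% neurons, set 7 held 70.9% non-neuronal nuclei, and 21 barcode sequences occurred in more than 1 set. Free RNA was measured by Slc17a7, an excitatory neuron gene, which stood at 232 CPM (UMIs of the gene per 1000000 UMIs of the class) in excitatory neurons, 9.39 in inhibitory neurons, 26.9 in oligodendrocytes and 34.0 in microglia. Neurons were deeper, with a mean of 7690 UMIs against 2042 in non-neuronal nuclei.

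Tet1 was the gene of the 8 with the largest gap between neurons and non-neuronal nuclei, and among the glia it was high in oligodendrocytes and low in microglia. Its level was 104 CPM in oligodendrocytes (504 UMIs, exact 95% Poisson interval 95.4 to 114, which like all intervals here covers counting error only). It was 59.8 CPM in both oligodendrocyte precursors (76 UMIs, 47.1 to 74.8) and astrocytes (20 UMIs, 36.5 to 92.3). In excitatory and inhibitory neuron classes it lay between 21.1 CPM (CA2/CA3 pyramidal neurons) and 39.3 CPM (subicular or cortical pyramidal neurons). Microglia had the lowest level, 17.0 CPM from 10 UMIs (8.16 to 31.3), which is below the 34.0 CPM that Slc17a7 reached in the same nuclei. The small Cajal-Retzius class, early-born neurons of the outer layer, stood at 92.0 CPM from 22 UMIs. Over the 6 barcode sets with at least 50 oligodendrocytes, the lowest, median and highest Tet1 levels were 92.7, 108 and 137 CPM. In CA1 pyramidal neurons the same 3 values were 19.1, 24.4 and 27.4 CPM, and in dentate granule neurons 14.7, 25.1 and 30.8. The oligodendrocyte and neuronal ranges did not overlap.

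**Figure D1:**
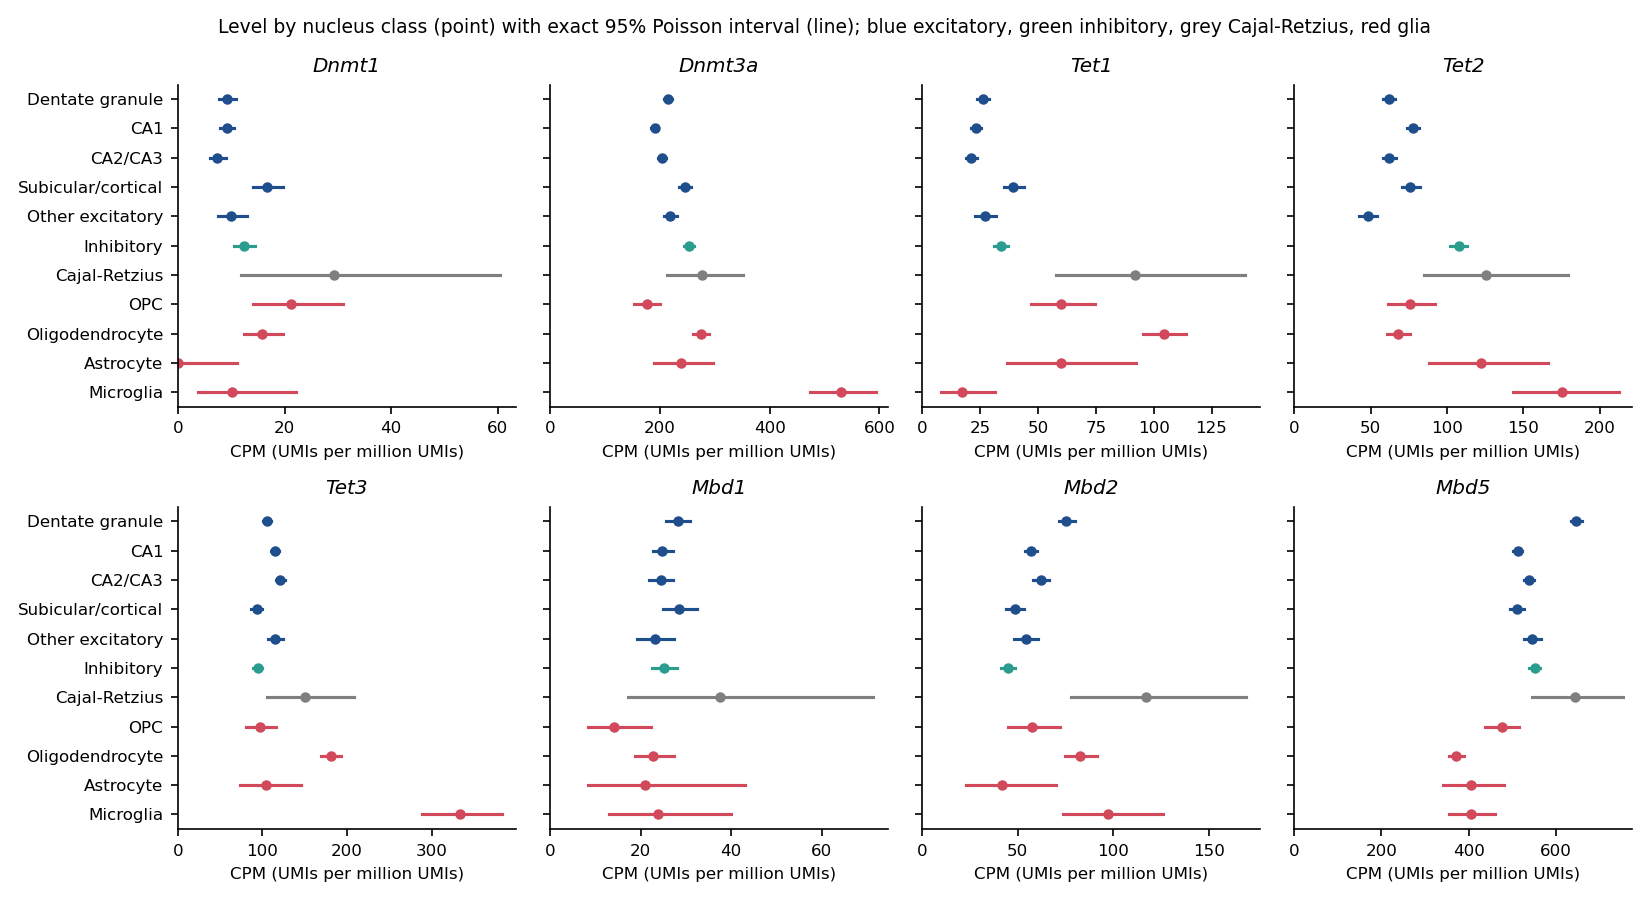
Level of each gene (x axis, CPM, linear, scaled per panel) in 11 nucleus classes (y axis), as points with exact 95% Poisson intervals as lines; OPC stands for oligodendrocyte precursor. Tet1 is highest in oligodendrocytes at 104 CPM, while Dnmt3a, Tet2 and Tet3 are highest in microglia at 531, 175 and 334 CPM.

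Summed over the excitatory and inhibitory neurons (here called neurons) and over the named glia and pericytes (non-neuronal nuclei), Tet1 stood at 27.2 and 86.4 CPM, a ratio of 0.315 (0.288 to 0.345). The 112 Cajal-Retzius nuclei and the unnamed nuclei, some of them with neuron markers, were on neither side. The ratio was 0.312, 0.333, 0.276, 0.328 and 0.349 in the 5 sets with enough nuclei on both sides, below 1 in all of them. Per nucleus, with no scaling for depth, the ratio was 1.19, so the direction turns. Tet1 was the only 1 of the 8 genes at least 2-fold apart, and of 13584 genes tested 21.1% were that much lower in neurons and 18.6% that much higher. At 1.5-fold, Tet3 and Dnmt1 joined it, beside 59.3% of all genes tested. A ratio below that of Tet1 was seen for 11.4% of the tested genes.

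Tet3 and Tet2 were highest in microglia. Tet3 stood at 334 CPM there (196 UMIs, 289 to 384), at 180 in oligodendrocytes, at 96.7 in oligodendrocyte precursors and between 93.0 and 121 in the excitatory and inhibitory neuron classes. In microglia, sets 1 to 4 gave 226, 458, 388 and 312 CPM, and in oligodendrocytes the sets ranged from 153 through a median of 183 to 209 CPM. All 4 microglial values were above all oligodendrocyte values, with a wide spread among the microglial sets. Tet3 was lower in neurons than in non-neuronal nuclei at a ratio of 0.623 (0.587 to 0.662), below 1 in 5 of 5 sets, but was 2.35 per nucleus with no scaling.

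Tet2 stood at 175 CPM in microglia (103 UMIs, 143 to 213), with 148, 229, 161 and 197 CPM in sets 1 to 4. Inhibitory neurons followed among the larger classes, at 108 CPM, against 47.9 to 77.7 CPM in the excitatory classes and 68.1 CPM in oligodendrocytes. Over 6 sets the inhibitory level was 92.2, 109 and 130 CPM (lowest, median, highest), while the CA1 level was 66.8, 76.7 and 101 CPM. The ends of those ranges overlapped, because set 1 was highest in both classes. Between neurons and non-neuronal nuclei Tet2 hardly differed, at 0.916 (0.840 to 0.999), with ratios above 1 in 3 of 5 sets. Without set 2 the interval was 0.882 to 1.07, without set 3 it was 0.861 to 1.05 and without set 6 it was 0.847 to 1.01, so each of these sets decides whether the interval holds 1.

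**Figure D2:**
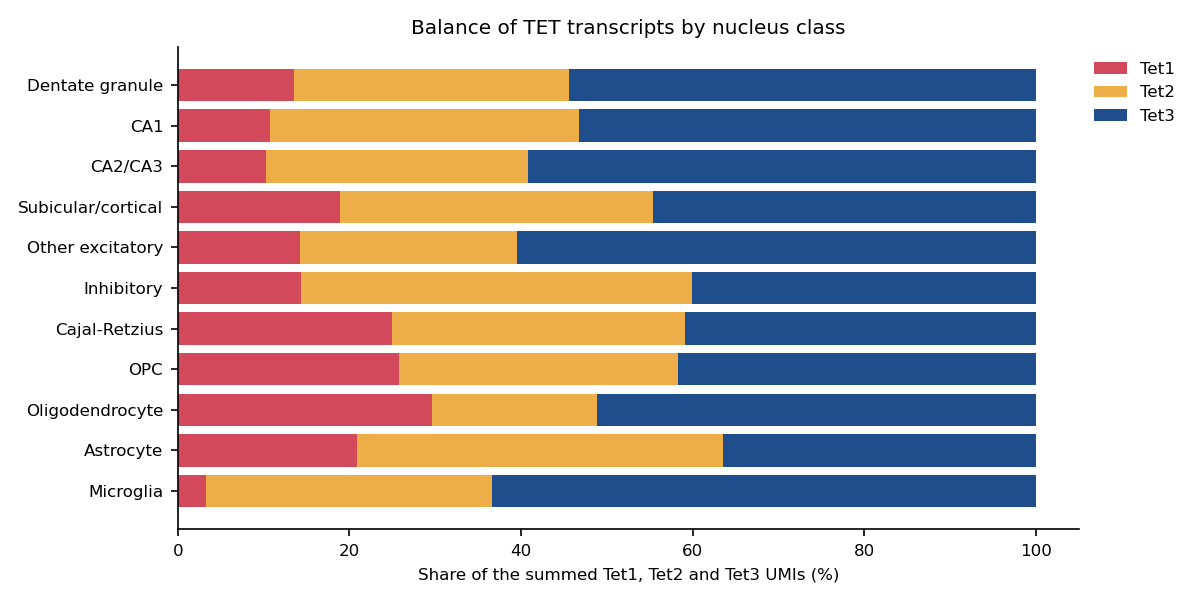
Share of the summed Tet1, Tet2 and Tet3 UMIs (x axis, %) taken by each gene in 11 nucleus classes (y axis); each bar sums the 3 shares. Tet1 takes 29.6% in oligodendrocytes and 3.24% in microglia, and Tet2 takes 45.6% in inhibitory neurons.

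The balance of the 3 TET genes was given as each gene's share of their summed UMIs. Tet1 held 29.6% of TET UMIs in oligodendrocytes (exact binomial interval 27.4 to 31.8%, of 1705 UMIs) and 25.8% in their precursors (20.9 to 31.2%), against 10.8% in CA1 neurons (9.88 to 11.7%) and 3.24% in microglia (1.56 to 5.87%). Across the excitatory and inhibitory classes the Tet1 share ran from 10.3% in CA2/CA3 neurons to 18.9% in subicular or cortical neurons (17.1 to 20.8%). In Cajal-Retzius cells it was 25.0% (16.4 to 35.4%, of 88 UMIs). Tet2 held 19.3% in oligodendrocytes and 32.5% in their precursors, with intervals of 17.4 to 21.3% and 27.2 to 38.2%. Thinned to 1000 UMIs per nucleus, which left 64 TET UMIs in precursors, their Tet1 share was 34.4% and their Tet2 share 26.6%. In inhibitory neurons Tet2 held 45.6% (43.8 to 47.4%). In CA2/CA3 neurons Tet3 held 59.2% (57.4 to 61.0%) and Tet2 30.5%. Genes differ in length and in how they are captured, so these shares compare classes and not the amounts of the 3 transcripts.

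Of the writers, Dnmt3a was highest in microglia and Dnmt1 was low throughout. Dnmt3a stood at 531 CPM in microglia (312 UMIs, 474 to 593), 275 in oligodendrocytes, 253 in inhibitory neurons, 190 to 245 in the excitatory classes and 176 in oligodendrocyte precursors. Microglial sets 1 to 4 gave 452, 503, 525 and 613 CPM, each above the highest oligodendrocyte set at 346 CPM. The lowest oligodendrocyte set was set 1, at 202 CPM, and the median over sets was 294. The neuronal to non-neuronal ratio was 0.777 (0.742 to 0.815), below 1 in 5 of 5 sets and 2.93 per nucleus with no scaling. Thinned to 1000 UMIs per nucleus, 37.5% of microglia carried a Dnmt3a UMI (31.7 to 43.6%), against 21.9% of oligodendrocytes (20.1 to 23.7%) and 18.2% of CA1 neurons (16.8 to 19.7%). Thinning left out microglia below 1000 UMIs, and the shares before thinning were 47.0, 34.0 and 60.7%.

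Dnmt1, the maintenance enzyme, ranged from 7.42 CPM in CA2/CA3 neurons (108 UMIs) to 21.2 CPM in oligodendrocyte precursors (27 UMIs, 14.0 to 30.9) and 29.3 CPM in Cajal-Retzius cells (7 UMIs, 11.8 to 60.3). No Dnmt1 UMI was found in 133 astrocytes, where 3 UMIs would be 8.97 CPM. At this depth the astrocyte level lay below that of subicular or cortical neurons, at 16.7 CPM (14.0 to 19.7), and was not distinguishable from the lower neuronal classes. No 2 neighbours in the order of its 11 class levels were separated beyond their counting intervals. Its neuronal to non-neuronal ratio was 0.660 (0.540 to 0.813), below 1 in 4 of 5 sets and 2.48 per nucleus with no scaling. Dnmt1 made up 10.8% of the summed Dnmt1 and Dnmt3a UMIs in oligodendrocyte precursors (7.21 to 15.3%), 5.41% in oligodendrocytes and 3.52% in CA2/CA3 neurons.

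Among the readers, Mbd5 and Mbd1 had CPM ratios above 1 in neurons against non-neuronal nuclei in all 5 sets. Per nucleus with no scaling all 8 genes were above 1. The median log2 ratio over all genes tested was then 1.70, and 5 of the 8 lay below it. Mbd5 stood at 647 CPM in dentate granule neurons (635 to 660), 511 to 552 CPM in the other excitatory and the inhibitory classes, 476 in oligodendrocyte precursors, 405 in microglia and 372 in oligodendrocytes (355 to 390). Cajal-Retzius cells stood at 644 CPM from 154 UMIs (546 to 754), close to granule neurons. Over 6 sets dentate granule neurons ranged from 561 to 676 CPM and oligodendrocytes from 330 to 412, with no overlap. The neuronal to non-neuronal ratio was 1.40 (1.35 to 1.46), and the sets gave 1.60, 1.38, 1.42, 1.30 and 1.40. Per nucleus with no scaling it was 5.27. The Mbd5 gene spans 376 kb, the longest of the 8, and overlaps Orc4 on the other strand by 0.77 kb. Orc4 had 11091 UMIs in all barcodes and Mbd5 had 54949, and whether the counting used strand is not given in the sources used here.

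Mbd2 was highest in the small Cajal-Retzius class, at 117 CPM from 28 UMIs (77.8 to 169). It was higher in oligodendrocytes (82.8 CPM) and microglia (97.0 CPM) than in inhibitory neurons (45.0 CPM), with dentate granule neurons at 75.5 CPM. Its neuronal to non-neuronal ratio of 0.755 (0.691 to 0.826) was below 1 in 4 of 5 sets, set 1 giving 1.14, and per nucleus with no scaling it was 2.84. Mbd1 ranged among the larger classes from 14.2 CPM in oligodendrocyte precursors (18 UMIs) to 28.6 CPM in subicular or cortical neurons, and no neighbours in its order were separated. Its neuronal to non-neuronal ratio was 1.21 (1.02 to 1.43), above 1 in 5 of 5 sets. Without set 1 the interval was 0.946 to 1.37 and without set 2 it was 0.981 to 1.43, so either set decides whether it holds 1. Over all 8 genes the median log2 ratio was -0.38, against -0.22 over all genes tested. With no scaling for depth the log2 ratio of every gene was higher by 1.91.

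**Figure D3:**
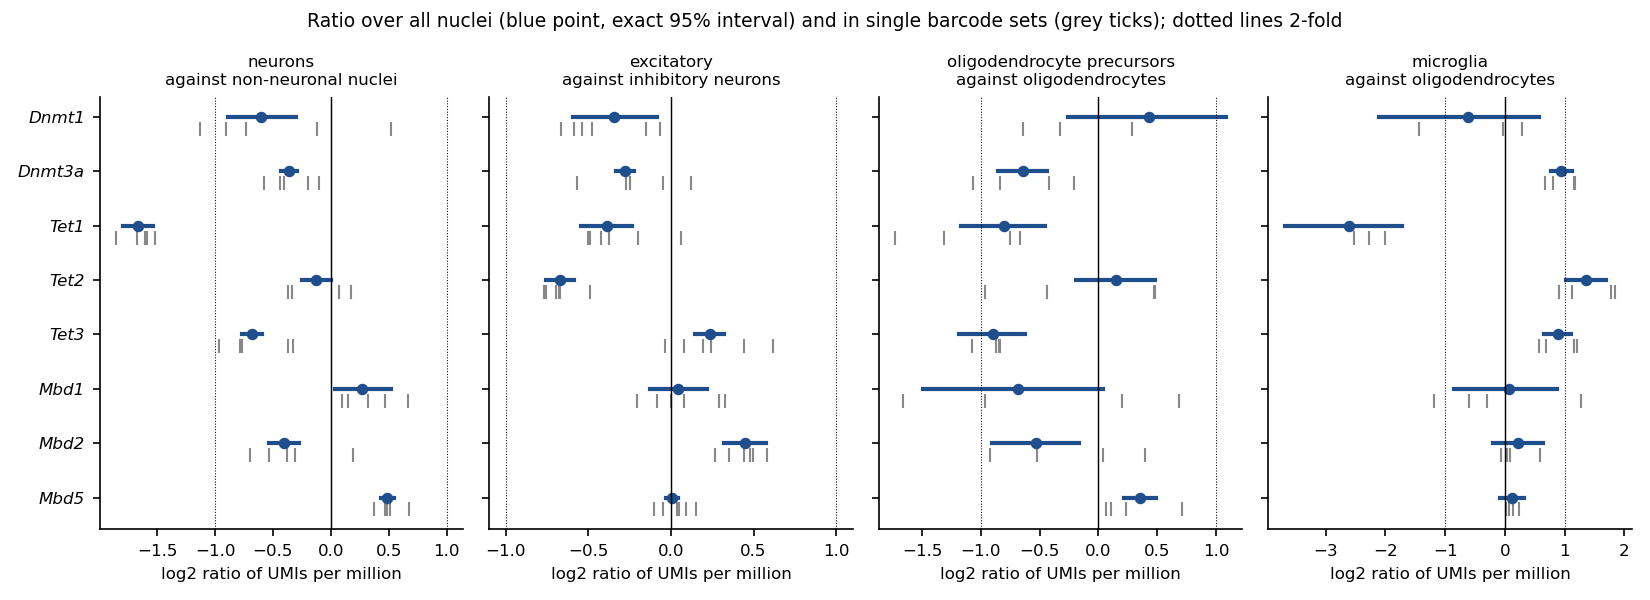
Log2 ratio of CPM (x axis) for the 8 genes (y axis) in 4 comparisons, as blue points with exact 95% intervals; grey ticks are single barcode sets with at least 50 nuclei and at least 1 UMI on both sides. Tet1 lies past the dotted 2-fold line in the first panel and at -2.62 for microglia against oligodendrocytes, while no gene passes it for excitatory against inhibitory neurons.

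Between excitatory and inhibitory neurons, whose mean depths were close (7710 and 7593 UMIs), Tet2 and Mbd2 differed in opposite directions. Tet2 stood at 67.6 and 108 CPM, a ratio of 0.628 (0.591 to 0.667), and the 6 sets lay between 0.587 and 0.711. Mbd2 stood at 61.3 and 45.0 CPM, a ratio of 1.36 (1.25 to 1.49), and the 6 sets were all at 1.21 or more. Both directions held in all 6 sets. Dnmt3a (0.825), Tet1 (0.764) and Dnmt1 (0.789) were lower in excitatory neurons and Tet3 higher (1.18), with intervals that did not hold 1. In 1 of 6 sets each, Dnmt3a (1.09), Tet1 (1.04) and Tet3 (0.975) went the other way. Without set 2 the Dnmt1 interval was 0.673 to 1.05. Mbd5 was level, at 1.01 (0.980 to 1.03), and Mbd1 was 1.03 (0.914 to 1.16). None of the 8 genes was 2-fold apart, where 7.12% of 13140 genes tested were higher by that much in excitatory neurons and 7.88% were lower. The median log2 ratio was -0.14 over the 8 genes and -0.10 over all.

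The inhibitory class was not uniform. Its Zic1-expressing cluster of 394 nuclei came from sets 1, 2 and 4 apart from 12 nuclei of set 3, and stood at 314 CPM for Dnmt3a (297 to 333) and 649 CPM for Mbd5 (624 to 675). The Lamp5-expressing cluster stood at 193 and 569 CPM for the same genes. Dnmt3a was 241 and 217 CPM in the remaining inhibitory clusters, against 209 CPM over all excitatory neurons. Tet1 was 47.1 CPM in the Lamp5-expressing cluster and 32.2 in the Zic1-expressing cluster. The Zic1-expressing and Lamp5-expressing clusters were singled out after their values were seen.

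Dentate granule neurons, the input cells of the hippocampal circuit, had more Mbd2 and Mbd5 and less Tet2 than CA1 pyramidal neurons, its main output cells. Mbd2 stood at 75.5 against 56.8 CPM (ratio 1.33, 1.23 to 1.44) and Mbd5 at 647 against 513 CPM (1.26, 1.23 to 1.30). Tet2 stood at 62.1 against 77.7 CPM (1.25-fold lower, 1.16 to 1.35). All 6 sets gave these directions, though Mbd2 in set 5, with 7 UMIs in granule neurons, was at 1.01. Dnmt3a was also above 1 in 6 of 6 sets (1.12, 1.07 to 1.18), and Tet3 was 0.915 (0.859 to 0.973). The CA1 class was not uniform for Tet2, with clusters at 67.4, 71.4, 93.2 and 97.3 CPM. The 93.2 CPM cluster was led by Fras1 and Dcn, and the 97.3 CPM cluster by Arc, with 199 of its 211 nuclei from set 1. Granule clusters stood at 53.5, 59.7 and 70.2 CPM for Tet2, so single clusters of the classes overlapped. No gene was 2-fold apart, beside 7.19% of 11439 genes tested that were higher by that much in granule neurons and 8.2% that were lower. With unnamed clusters placed in their best class the log2 ratio of Tet3 was 0.00088 in place of -0.13. That setting added clusters of 438 and 195 nuclei to the granule class, both left unnamed because oligodendrocyte markers were raised. The larger was led by Inpp5d, a listed microglial marker. Tet3 stood at 163 CPM in the larger and 107 CPM in the smaller. What kind of nuclei these clusters hold was not tested. The median log2 ratio was 0.17 over the 8 genes and 0.05 over all, and with no scaling each log2 ratio was lower by 0.12.

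CA2/CA3 and CA1 pyramidal neurons were close. Tet2 was lower in CA2/CA3 neurons, at 62.2 against 77.7 CPM (0.801, 0.738 to 0.870), in 6 of 6 sets, but 1.28 per nucleus with no scaling, since CA2/CA3 nuclei held 1.59 times as many UMIs. Its CA2/CA3 clusters stood at 59.5 and 65.7 CPM, and the CA1 clusters ranged from 67.4 to 97.3 CPM. The other 7 genes lay between 0.806 (Dnmt1) and 1.09 (Mbd2). Without set 1, 2, 3 or 5 the interval for Mbd2 held 1, as did that of Dnmt3a without set 4, and thinned to 1000 UMIs the log2 ratio of Mbd2 was -0.18. No gene was 2-fold apart, beside 4.7% of 11410 genes higher and 3.89% lower.

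**Figure D4:**
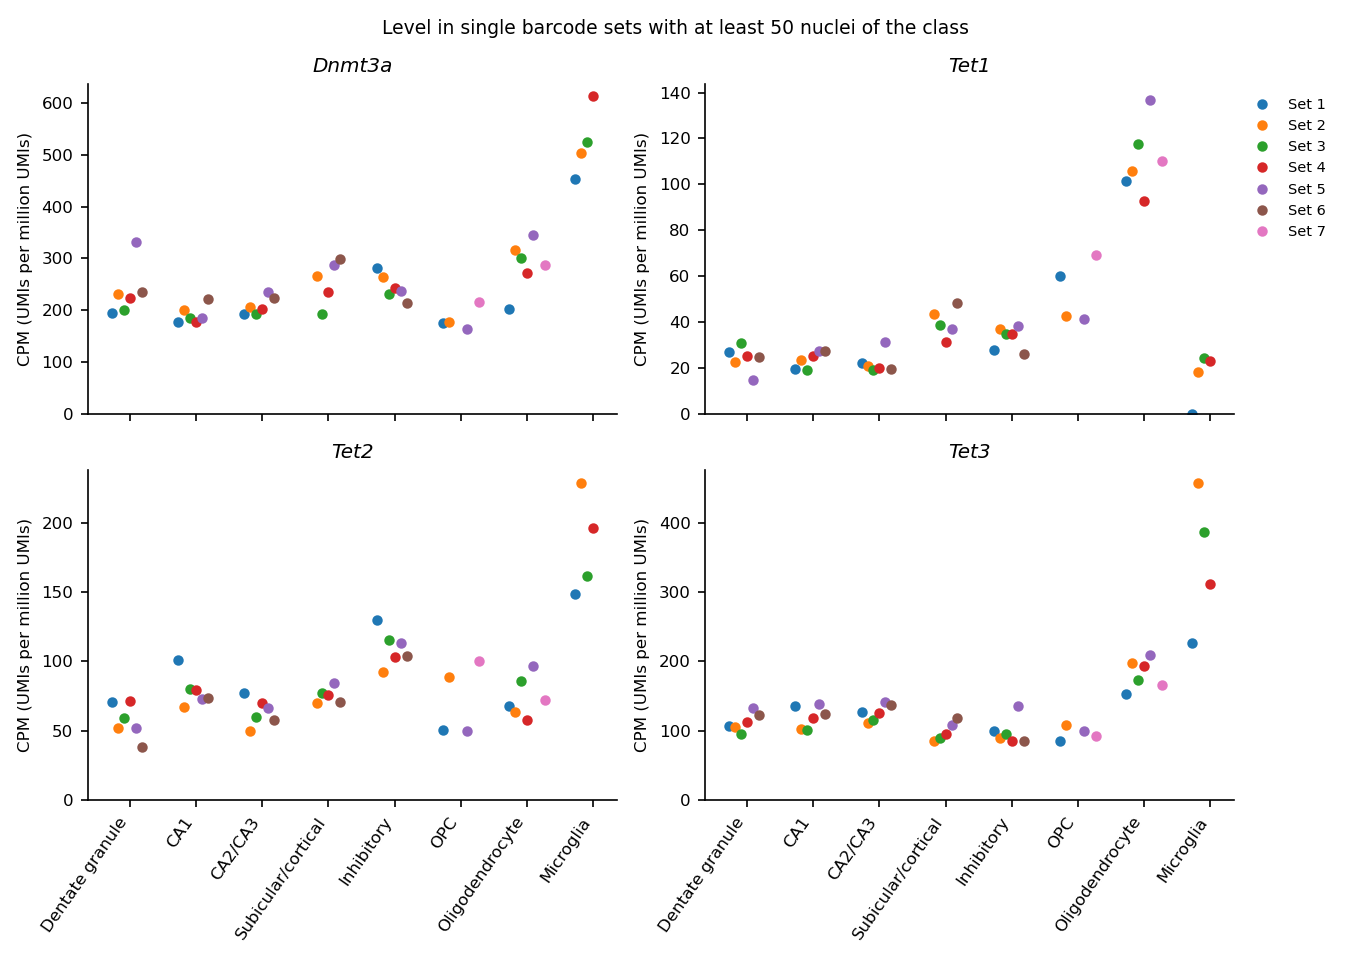
Levels of Dnmt3a, Tet1, Tet2 and Tet3 (y axis, CPM, linear) in 8 nucleus classes (x axis), 1 point for each barcode set with at least 50 nuclei of the class. Tet1 in oligodendrocytes lies between 92.7 and 137 CPM in every set shown, above all neuronal points, and Dnmt3a in microglia lies between 452 and 613 CPM.

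Oligodendrocyte precursors, which divide in the adult brain, were set against the myelinating oligodendrocytes they give rise to. Tet3 stood at 96.7 against 180 CPM (0.536, 0.440 to 0.648), Tet1 at 59.8 against 104 CPM (0.573, 0.444 to 0.731) and Dnmt3a at 176 against 275 CPM (0.640, 0.553 to 0.738). All 3 were below 1 in 4 of 4 sets, but per nucleus with no scaling they were 1.02, 1.09 and 1.22, since precursors held 1.91 times as many UMIs. Precursor levels of Tet3 were 85.2, 108, 99.0 and 92.4 CPM in sets 1, 2, 5 and 7, all below the lowest oligodendrocyte set at 153 CPM. Mbd5 went the other way, at 476 against 372 CPM (1.28, 1.16 to 1.40), with 1.63, 1.18, 1.08 and 1.05 in the 4 sets. Mbd2 was 0.694 (0.533 to 0.892), with ratios above 1 in 2 of 4 sets, and the intervals of Dnmt1, Tet2 and Mbd1 held 1. None of the 8 genes was 2-fold apart, beside 15.4% of 7470 genes higher and 15.9% lower. The median log2 ratio was -0.59 over the 8 genes and -0.18 over all.

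One oligodendrocyte cluster of 66 nuclei was led by Tcf7l2, Bcas1 and Enpp6, genes known from newly formed oligodendrocytes. Tet1 stood at 168 CPM there (53 UMIs, 126 to 219), against 98.1 CPM in the largest oligodendrocyte cluster and 59.8 in precursors. The remaining oligodendrocyte clusters stood at 95.9 CPM and at 117 CPM (89.7 to 149), the latter with an overlapping interval. In the cluster of 66 nuclei Dnmt3a was 332 CPM (272 to 402) and Mbd5 462 CPM (390 to 543). This cluster of 66 nuclei was singled out after its values were seen, and no test was made.

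Microglia, the resident macrophages of the brain, were set against oligodendrocytes, at mean depths of 1534 and 1883 UMIs. Tet2 was higher at 2.57 (2.04 to 3.22), with 2.19, 3.61, 1.88 and 3.42 in sets 1 to 4. Dnmt3a was higher at 1.93 (1.70 to 2.18) and Tet3 at 1.85 (1.57 to 2.16), both above 1 in 4 of 4 sets. Tet1 was lower at 0.163 (0.0778 to 0.303), with 0, 2, 3 and 4 microglial UMIs in sets 1 to 4. Tet1 and Tet2 were the only 2 of the 7 genes tested that were 2-fold apart, where 18.9% of 7103 genes were higher and 20.4% lower by that much. Dnmt1 had 6 and 76 UMIs, under the minimum of 100. Mbd1, Mbd2 and Mbd5 gave 1.05, 1.17 and 1.09, with intervals that held 1. The median log2 ratio was 0.23 over the 7 genes and 0.13 over all. With no scaling for depth the log2 ratios were lower by 0.30.

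The unnamed clusters were left out of these comparisons. The largest, 745 nuclei of which 675 came from set 1, was led by Ebf1, Baiap3 and Resp18. It had 3 of 4 neuron markers high but met neither the inhibitory nor the excitatory naming rule, so it was not counted among neurons. Dnmt3a stood at 306 CPM in it (292 to 320), Tet1 at 55.2 CPM (49.3 to 61.5) and Mbd5 at 618 CPM (598 to 638). Its Tet1 level was above those of the 6 excitatory and inhibitory classes and below that of oligodendrocytes.

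Genes of related function gave the background for the 8. Of 22 other genes tied to DNA methylation, 19 had enough UMIs in neurons and non-neuronal nuclei, of which 1 was at least 2-fold higher in neurons, 2 lower, and the median log2 ratio was -0.34. The higher gene was Cxxc4, a zinc-finger CpG binder related to an ancestral part of Tet2, at 32.3 against 14.4 CPM (2.24, 1.83 to 2.75). Cxxc5, of the same family, was lower at 19.1 against 76.7 CPM (4.01-fold lower, 3.63 to 4.42), as was the de novo methyltransferase Dnmt3b at 1.27 against 3.82 CPM (0.333, 0.216 to 0.530). Gadd45g, a stress-response gene, was next highest at 1.14 (0.805 to 1.67). Of 12 NuRD subunits, the complex that MBD2 joins, 2 were higher and 2 lower, with a median of -0.28. The chromodomain remodellers Chd5 (7.10) and Chd3 (2.35) were the higher ones, and Mta3 (0.366) and Gatad2a (0.420) the lower. Of 8 PR-DUB genes none was 2-fold apart, with Bap1, its deubiquitinase, at 1.57 (1.15 to 2.19), Foxk1 at 1.07, Asxl2 at 0.562 and Kdm1b at 0.576. Of 6 replication and cell cycle genes with enough UMIs, Mki67 was higher at 2.61 (1.88 to 3.72) and Pcna (0.320) and Mcm7 (0.405) were lower, and Mcm6 was 1.43-fold lower. The background for these counts was the 18.6% higher and 21.1% lower given above.

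Over 10 classes of at least 100 nuclei, the profiles most like each of the 8 genes among 10835 genes were found by Pearson's r of log2(CPM + 1), given here as a description. Dnmt3a was most like Rps6ka1 (0.98) and Larp4b (0.97), Tet3 like Arpc1b (0.98) and Tbc1d22a (0.97), and Tet1 like Efhd1 (0.95) and Adgrv1 (0.95). Tet2 was most like Zfp467 and Rad17 (both 0.95), Dnmt1 like Slc27a4 and Slc23a1 (both 0.96), and Mbd5 like Abhd8 (0.96) and Cpsf4l (0.95). Mbd1 was most like Hnrnpu (0.96) and Zc3h6 (0.93), and Mbd2 like Skp1a (0.95) and Rpl37 (0.94). Among the 8 themselves the highest values were 0.86 for Dnmt3a with Tet3 and 0.75 for Dnmt3a with Tet2. The classes share libraries and differ in depth, and with 10 points many genes reach such values.

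On GRCm38 the genes lie at chromosome 9, 20907209 to 20959888 (Dnmt1), chromosome 12, 3806007 to 3914443 (Dnmt3a), chromosome 10, 62804570 to 62908996 (Tet1), chromosome 3, 133463679 to 133545139 (Tet2), chromosome 6, 83362373 to 83459084 (Tet3) and chromosome 2, 48949508 to 49325405 (Mbd5). Mbd1 and Mbd2 both lie on chromosome 18.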

How the data were processed

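The authors deposited 1 matrix of unscaled UMI counts, a gene by barcode table, per the file headers. Cell Ranger 4.0.0 and the builds mm10 and GRCm38 are named in the submitters' processing notes. For the use of intronic reads and strand and for the annotation release, the entry is: not given in the sources used here. Both the genes described and the lists were chosen with earlier results of these data known.

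Barcodes with at least 500 UMIs were kept (depth by set: 6335095 to 26207554 UMIs in sets 1 to 6, 1305838 in set 7). Scrublet doublet calls (scanpy 1.11.5, expected rate 0.05) were removed in sets 1, 3, 4 and 6. In sets 2, 5 and 7 fewer than 0.5% were called and no call was used. Clustering used 2000 variable genes plus markers, without the 8 genes and the lists, 30 principal components, 15 neighbours and Leiden resolution 1 (leidenalg 0.10.2). Non-neuronal clusters with markers of more than 1 class were clustered again once, which took 31 clusters to 35. A non-neuronal, Cajal-Retzius or inhibitory name needed at least 3 markers at 0.25 or more of their highest cluster level, in at least 5% of nuclei. An excitatory subtype needed at least 3 markers raised 2-fold or more over the other neuronal clusters, with no other subtype reaching 3. Any excitatory name also needed Slc17a7 at 0.25 or more of its highest cluster level, in at least 5% of nuclei. Neuronal clusters with raised non-neuronal markers stayed unnamed. These naming rules were settled while cluster markers, but no level of the 8 genes, were in view. UMIs were summed per class and scaled per 1000000 (CPM). Ratios carry exact 95% intervals for a pair of Poisson counts, and shares exact Clopper-Pearson intervals. Genes with at least 100 UMIs over both sides were tested against a 2-fold difference, with no p-value. The ratio step was checked on simulated counts. Named genes are the 8, the 2 highest and 2 lowest of each list in neurons against non-neuronal nuclei, the 2 most alike profiles, and Slc17a7 for free RNA. A further gene of this rule is not reported here. Positions are from GENCODE M21 and promoter windows from RefSeq, which matched 6 of the 8 genes. Alternatives were UMIs per nucleus with no scaling, thinning to 1000 UMIs, a minimum of 1000 UMIs, doublets kept, unnamed clusters in their best class, resolution 0.5, the median over barcode sets, each set left out, a minimum of 500 UMIs over both sides and a 1.5-fold difference.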

Additional observations from a re-analysis of the deposited data

Results flagged for a closer look

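In 7 of 72 combinations of gene and class with 4 or more barcode sets, 1 set stood far from the others. The rule used gives about 1 in 20 by chance only for sets of equal precision. These sets differed in depth, so the 7 cannot be set against that rate. Set 5, whose median depth was 2822 UMIs, gave 5 of the 7. Dnmt3a in dentate granule neurons was 331 CPM in set 5 (45 UMIs) and 195 to 236 in the others. Tet1 in CA2/CA3 neurons was 31.6 CPM in set 5 (27 UMIs) and 19.1 to 22.3 in the others. Tet3 in inhibitory neurons was 136 CPM in set 5 (114 UMIs) and 84.3 to 99.9 in the others. In excitatory neurons with no subtype, Mbd1 was 35.3 CPM in set 5 (22 UMIs) against 21.8 to 22.7, and Mbd5 was 484 CPM against 542 to 548. Mbd2 in inhibitory neurons was 54.0 CPM in set 1 against 41.5 to 45.3, and in subicular or cortical neurons 58.3 CPM in set 6 (29 UMIs) against 47.0 to 48.6. The counting intervals of the lowest and highest set were apart only for Dnmt3a in granule neurons and Tet3 in inhibitory neurons. In the other flagged combinations they overlapped.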

How the results depend on the processing

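No paired analysis was possible because all samples form 1 group and no barcode set is tied to a sample. Of 672 log2 ratios recomputed under alternatives, 58 moved beyond their counting interval with the same sign or an interval that held 1, and 14 turned direction, 11 of them with no scaling for depth, where neurons, precursors and CA2/CA3 neurons held more UMIs per nucleus. Those were, for neurons against non-neuronal nuclei, Dnmt1 at 1.31, Dnmt3a 1.55, Tet1 0.25, Tet2 1.79, Tet3 1.23 and Mbd2 1.51, for precursors against oligodendrocytes Dnmt3a at 0.29, Tet1 0.13, Tet3 0.032 and Mbd2 0.40, and for CA2/CA3 against CA1 neurons Tet2 at 0.35. Mbd2 was -0.18 in CA2/CA3 against CA1 neurons after thinning, Tet3 was 0.00088 in granule against CA1 neurons with unnamed clusters in their best class, and Tet2 was 0.072 in neurons against non-neuronal nuclei as the median over sets. The number of genes 2-fold apart between neurons and non-neuronal nuclei, 1 as reported, was 7 with no scaling and 3 at 1.5-fold. Between precursors and oligodendrocytes, 0 as reported, it was 3 with no scaling, 1 after thinning and 1 as the median over sets. With no scaling the median log2 ratio over all genes tested was 1.70 for neurons, itself past 2-fold, and 0.75 for precursors. At 1.5-fold, 59.3% of all genes tested were apart between neurons and non-neuronal nuclei. The other counts stayed within 1.5 times. Of 968 class levels 23 moved, 14 of them with the coarser clustering or the unnamed clusters placed (Tet1 in granule neurons to 34.4 CPM, in inhibitory neurons to 40.9) and 9 on leaving out a barcode set, as did 4 log2 ratios (Dnmt3a in oligodendrocytes was 294 CPM without set 1). The unnamed clusters placed with granule neurons were those with raised oligodendrocyte markers. Of 53 shares 15 moved on thinning. Leaving out each barcode set in turn, 5 of the 32 ratios whose interval did not hold 1 lost that for at least 1 set, and 4 whose interval held 1 gained it (Tet1 and Mbd1 in granule against CA1 neurons, Dnmt1 in CA2/CA3 against CA1 neurons, Mbd1 in precursors against oligodendrocytes). Depth limits Dnmt1 and, in microglia, Tet1 and Mbd1, which rest on few UMIs.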
